A study of Mus musculus with 7 samples.

Results

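Malat1, Neat1, Meg3, Kcnq1ot1 and Miat are long noncoding RNAs that are found mainly in the nucleus, and they were looked up by gene symbol as 5 of the 30899 genes measured in endothelial cells of mouse skeletal muscle. The RNAs were chosen because Malat1 and Neat1 were much lower in one group of these same libraries, so their differences are given below as a description, without a test. The study asked what loss of the glucose transporter GLUT1 from the endothelium does to metabolic balance in muscle. Its libraries fall into 2 groups, 3 from wild-type mice (mECwt) and 4 from mice labelled as endothelial GLUT1 knockout (mECDglut1). Both groups are primary cells that received no special treatment, were captured on beads and went straight to RNA extraction, and each library was made from 10 ng of RNA. The sources used here give no Cre driver, deleted exons, age or sex of the mice, and the labels do not state which libraries share an animal. The p-values below therefore cover the spread between libraries, which may be technical.

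Malat1 is among the most abundant nuclear transcripts of mammalian cells and gathers in nuclear speckles, bodies rich in splicing factors, and it has been studied in the growth and sprouting of endothelial cells. Neat1 is transcribed from the gene next to it and is the scaffold around which paraspeckles, another kind of nuclear body, are built. Its long isoform is the one paraspeckles need, and its short isoform shares the long isoform's beginning, so a count per gene cannot tell these isoforms apart. Meg3 is the maternally expressed RNA of the imprinted Dlk1-Meg3 domain and is active in endothelium. Kcnq1ot1 is expressed from the paternal chromosome, lies antisense to Kcnq1 and silences genes of its imprinted domain. Miat, also known as Gomafu, forms spots of its own in the nucleus and is best known from neurons.

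Malat1 and long Neat1 have no ordinary poly(A) tail. Their ends are cut by RNase P, the enzyme that also trims transfer RNA precursors, and are then protected by a triple helix in which an A-rich tract pairs with upstream U-rich elements. The stretches that hold these elements are shown because they are what the members with the highest levels share in sequence. The letters are those of the GENCODE M21 mouse transcripts, on the transcript strand, from position 6598 to 6691 of the 6983 bases of Malat1 and from position 20672 to 20771 of the 20771 bases of Neat1. Capitals mark the letters searched for, with T written for U. In order, they are a stretch that holds the first U-rich element, one that holds the second, and the end of the A-rich tract. The capitals run past the U-rich letters, and in Malat1 further A's just before the last capitals are in lower case.
Malat1: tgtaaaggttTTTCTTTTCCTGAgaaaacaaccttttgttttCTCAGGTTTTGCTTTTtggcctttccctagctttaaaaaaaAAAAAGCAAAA
Neat1: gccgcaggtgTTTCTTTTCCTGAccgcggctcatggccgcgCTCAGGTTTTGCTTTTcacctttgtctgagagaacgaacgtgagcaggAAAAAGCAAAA
Among 141767 transcripts of 55341 genes in that annotation, transcripts of 2 genes held these 3 elements in this order, those of Malat1 and Neat1. The A-rich tract was the end of the annotated Neat1 transcript, whereas 292 more bases followed it in the annotated Malat1 transcript. These letters were not found in order in Meg3, Kcnq1ot1 or Miat.

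RefSeq promoters, from 250 bases before to 50 bases after a start in the GRCm38.p6 assembly, were matched for 4 of the 5 members. Neat1 has no entry. The promoters of Malat1 and Kcnq1ot1 are shown, as the members with an entry whose libraries did not overlap between the groups. Both are on the minus strand of their chromosomes and are printed 5′ to 3′ along the gene, with capitals for matches on either strand to CCAAT, the CCAAT box, or to ACGTG, the core of a hypoxia response element.
Malat1 chr19:5802623-5802922: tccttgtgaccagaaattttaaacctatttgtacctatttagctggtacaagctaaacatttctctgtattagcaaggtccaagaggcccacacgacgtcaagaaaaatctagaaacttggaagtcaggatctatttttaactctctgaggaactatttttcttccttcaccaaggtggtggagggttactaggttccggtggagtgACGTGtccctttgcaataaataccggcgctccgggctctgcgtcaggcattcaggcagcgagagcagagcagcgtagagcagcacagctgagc
Kcnq1ot1 chr7:143296498-143296797: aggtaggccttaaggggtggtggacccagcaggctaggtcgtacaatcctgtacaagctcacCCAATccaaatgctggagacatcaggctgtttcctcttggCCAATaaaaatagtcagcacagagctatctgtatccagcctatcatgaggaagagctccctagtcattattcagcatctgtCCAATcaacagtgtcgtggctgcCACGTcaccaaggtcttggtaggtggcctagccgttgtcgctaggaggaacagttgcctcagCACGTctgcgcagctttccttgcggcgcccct
The Malat1 window held 1 match to ACGTG, beginning 43 bases before the start, and no CCAAT. The Kcnq1ot1 window held 3 matches to CCAAT, at 188, 148 and 67 bases before the start, and 2 to ACGTG, both on the other strand. Of all 32851 promoter windows, 37.4% held CCAAT and 19.6% held ACGTG. The other motifs searched, on both strands, had no match in either window: TATAAA (in 13.6% of all windows), GGGCGG (35.7%), TGACGTCA (1.79%), TGANTCA (7.81%), CACGTG, which contains ACGTG (7.15%), GAANNTTC (7.86%), the serum response element (0.0639%) and CCGGAAG (8.86%).

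Slc2a1, which encodes GLUT1, checks the labels. Its normalized count was 1032, 1083 and 1266 in mECwt and 952.6, 1435, 824.2 and 1087 in mECDglut1. The groups overlapped, and the log2 difference was -0.09 (SE 0.18, 95% interval -0.47 to 0.28, limma adjusted p = 0.738). The deleted part of the gene is not known here, and reads from outside it would remain, but the count itself does not bear out the label. The 4 mECDglut1 libraries are therefore called knockout-labelled, and each direction below is that of the labels.

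Total normalized counts ranged from 11855652 to 13441728 per wild-type library and from 14592369 to 15731074 per knockout-labelled library. Sequencing depth is not known: only 24.4% to 48.6% of the low values of a library lay within 0.02 steps of a whole multiple of a single step. Between 2794 and 6551 genes were at 0 in a wild-type library, and between 7301 and 9306 in a knockout-labelled one. The summed level of 10 endothelial markers was 103450 to 135659 for wild type and 139197 to 153335 for the knockout label, and none of the 10 was absent. Of the 10, 2 were called higher and 1 lower, at -0.47 without overlap. With equal totals 0 were called higher and 1 lower, and the list's median log2 difference was 0.05 in place of 0.27. Markers of other cells moved too: the sum was 9667 to 15982 against 20151 to 25278 for 10 fibroadipogenic progenitor genes (4 called higher), 40840 to 53946 against 66737 to 75366 for 10 pericyte and smooth muscle genes (4 higher), 15084 to 19503 against 26695 to 36254 for 6 Schwann cell genes (4 higher), 1754 to 2233 against 2577 to 2867 for 6 satellite cell genes (3 higher), and 1761 to 5515 against 4442 to 20274 for 6 erythroid genes (all 6 higher, with overlap of the sums). Over all tested genes 5.98% were called higher. In these lists of other cells, in that order, 3, 2, 4, 2 and 5 were called higher with equal totals. Without mECwt-1 the calls in the same lists were 1, 2, 0, 0 and 0. The 4 called in the pericyte and smooth muscle list were all smooth muscle contractile genes. Not called, with their log2 differences, were Pdgfrb (0.06), Rgs5 (-0.02), Kcnj8 (-0.03), Abcc9 (-0.15), Cspg4 (0.39) and Notch3 (0.26). Of the 10 progenitor estimates 8 were above 0, but Pdgfra was at -0.32 and Pi16 at -0.27. Vcam1, not called, made up most of the satellite cell sum, with means of 1453 in wild type and 1863 in the others. Macrophage genes summed to 236.4 to 310.6 against 277 to 465.5 (1 of 7 tested higher, with Adgre1 and C1qa at 0 in some libraries), and muscle fibre genes to 315.9 to 696.8 against 498.3 to 757.8 (0 of 10 called by limma, 0 at an unadjusted p under 0.05). Of the 7 macrophage estimates 3 were above 0 and 4 below, among the latter Cd68 at -1.19, not called but without overlap. The part of these cells in the values of the nuclear RNAs was not tested, and in bulk RNA fewer cells of a type and less RNA per cell cannot be told apart.

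Malat1, the RNA of nuclear speckles, was 3.59-fold higher in wild type than in the knockout-labelled libraries by the ratio of means. Its normalized count was 238403, 140208 and 121226 in mECwt libraries 1 to 3 and 34564, 48166, 68730 and 34284 in mECDglut1 libraries 1 to 4. Every wild-type library lay above every knockout-labelled one, with mECwt-1 far above the rest and mECDglut1-3 the nearest to wild type. Wild type averaged 166612 ± 62893 (SD, n = 3), the knockout label 46436 ± 16214 (SD, n = 4), and the log2 difference was -1.84 (SE 0.26, 95% interval -2.40 to -1.28). Malat1 took 1.32% ± 0.603 of all normalized counts in wild type and 0.311% ± 0.117 in the knockout-labelled libraries. By abundance among all genes, it held places 3, 4 and 5 in the wild-type libraries and places between 9 and 31 in the others.

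Neat1, the paraspeckle scaffold, differed by a like amount, with 3.64-fold more in wild type. Its normalized count was 16175, 9730 and 7890 in wild type against 3220, 3692, 3196 and 2283 in the knockout-labelled libraries. The lowest wild-type library was more than the highest knockout-labelled one, mECDglut1-2, and mECwt-1 was again the highest of all. Wild type had a mean of 11265 ± 4350 (SD, n = 3) and the knockout label one of 3098 ± 589 (SD, n = 4), and the log2 difference was -1.82 (SE 0.21, 95% interval -2.28 to -1.36). Among all genes, Neat1 was placed between 57 and 162 for wild type and between 608 and 1113 for the knockout label.

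Malat1 and Neat1 kept much the same proportion to each other. There were 14.7, 14.4 and 15.4 normalized counts of Malat1 for each one of Neat1 in wild type against 10.7, 13.05, 21.5 and 15.0 in the knockout-labelled libraries. The wild-type libraries lay close together, while the knockout-labelled ones spread to both sides of them, with mECDglut1-3 rich in Malat1 and mECDglut1-1 poor in it. The group means were 14.8 ± 0.485 (SD, n = 3) and 15.1 ± 4.63 (SD, n = 4), and the groups overlapped.

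Meg3, the imprinted RNA of the Dlk1-Meg3 domain, was lower on average in the knockout-labelled libraries but its groups overlapped. Its normalized count was 502.2, 532.4 and 132.4 in wild type against 106.5, 143.2, 83.3 and 69.8 in the knockout-labelled libraries. The wild-type libraries were not alike: mECwt-3 held about as much as the knockout-labelled libraries and less than mECDglut1-2. On average the groups stood at 389 ± 223 (SD, n = 3) and 100.7 ± 32.1 (SD, n = 4), and the log2 difference was -1.75 (SE 0.41, 95% interval -2.63 to -0.87). Without mECwt-3 it was -2.40.

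Kcnq1ot1, the silencing RNA of the Kcnq1 domain, showed a smaller difference, 2.32-fold by the ratio of means. Its normalized count was 2441, 1381 and 1524 in wild type against 666.7, 756.5, 1082 and 569.3 in the knockout-labelled libraries. The groups did not overlap, with mECwt-1 the highest and mECDglut1-3 the nearest to wild type, as for Malat1. Mean counts came to 1782 ± 575 (SD, n = 3) and 768.7 ± 222 (SD, n = 4), and the log2 difference was -1.21 (SE 0.22, 95% interval -1.69 to -0.73). Relative to Malat1 it was higher in the knockout-labelled libraries: for every 1000 counts of Malat1 there were 10.2, 9.85 and 12.6 of Kcnq1ot1 in wild type against 19.3, 15.7, 15.7 and 16.6 in the knockout-labelled libraries, with no overlap.

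Miat was close to the limit of what these libraries show, and its mean of 7.20 was under the minimum of 10 set for testing. Its normalized count was 20.2, 6.52 and 8.81 in wild type against 3.32, 8.09, 1.65 and 1.78 in the knockout-labelled libraries. The groups overlapped, since mECDglut1-2 held more than mECwt-2. Fitted without the minimum, its log2 difference was -1.49 (SE 0.80, 95% interval -3.17 to 0.18).

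**Figure D1:**
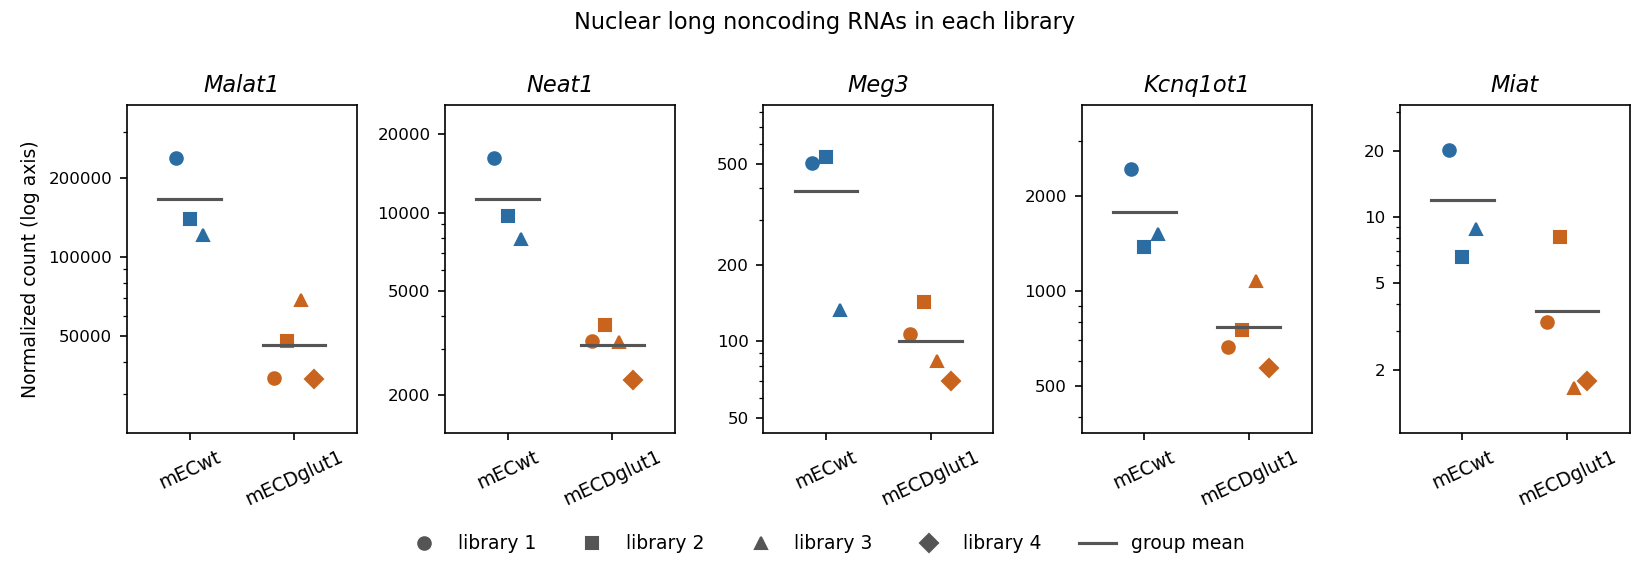
Normalized count of each nuclear long noncoding RNA (y axis, logarithmic and scaled for each panel) in the 3 mECwt libraries (blue) and 4 mECDglut1 libraries (orange), with a mark for each library and a line at the group mean. Malat1, Neat1 and Kcnq1ot1 show no overlap between groups, while mECwt-3 at 132.4 for Meg3 and mECDglut1-2 at 8.09 for Miat lie within the other group's range.

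Of the 5 members, 4 passed the minimum for testing and 3 were lower in every knockout-labelled library than in any wild-type one. Of all 16931 tested genes, 14.1% did the same, and of the 2596 tested long noncoding RNA genes 40.1% did. Because the members were chosen on this contrast, nothing is read from their count.

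Per kilobase of exon, the order of the members was the same at the top in both groups. Malat1 stood at 23860 ± 9007 normalized counts per kilobase in wild type and 6650 ± 2322 in the knockout-labelled libraries, and Neat1 followed at 542.3 ± 209 and 149.1 ± 28.4. Meg3 at 21.5 ± 12.3 and Kcnq1ot1 at 19.1 ± 6.18 came next in wild type, and in the knockout-labelled libraries Kcnq1ot1 at 8.26 ± 2.39 and Meg3 at 5.57 ± 1.78 (SD, n = 3 and n = 4 throughout). Kcnq1ot1 was above Meg3 in each of the 4 knockout-labelled libraries, whereas in wild type Meg3 was above Kcnq1ot1 in mECwt-1 and mECwt-2 and below it in mECwt-3. Their ranges overlapped in both groups. Miat was lowest at 1.28 ± 0.791 and 0.399 ± 0.325. Exonic lengths were those of the union of annotated exons, from 6983 bases for Malat1 to 93092 for Kcnq1ot1, and a gene whose shorter isoform dominates is understated.

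Many long noncoding RNAs were lower in the knockout-labelled libraries. The median log2 difference was -1.14 over the 2596 tested long noncoding RNA genes (-0.51 with quantile normalization and -0.33 with the level of olfactory and vomeronasal receptor genes as a covariate), 0.11 over 13768 protein-coding genes and 0.02 over all tested genes. By limma with Benjamini-Hochberg adjustment, 403 long noncoding RNA genes fell (15.5%; 399 of the 2592 that are not members) and 14 rose (0.539%), against 494 (3.59%) and 946 (6.87%) of protein-coding genes, but without mECwt-1 the count of long noncoding RNA genes that fell was 8. Most of the long noncoding RNAs that fell were scarce: 317 of them had a mean between 10 and 100, where the median difference was -1.18 over 2365 genes. Besides Malat1, Neat1 and Kcnq1ot1, which were chosen on this contrast and are left out of the count, 17 had a mean of at least 1000, of which 6 fell and 2 rose, with a median of -0.20. Protein-coding genes at that level had a median of 0.16.

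Within the abundant long noncoding RNAs, the differences of Malat1 and Neat1 lay near the low end. Both were chosen for this fall, so their places below only describe it. Among the 19 others at a mean of 1000 or more, 1 had a lower log2 difference than Malat1, 2 were lower than Neat1 and 6 were lower than Kcnq1ot1. Among 230 others with a mean of at least 100, 16 were lower than Malat1, 18 than Neat1, 22 than Meg3 and 59 than Kcnq1ot1. Against all 2713 other genes with a mean of at least 1000, whatever their kind, 2 were lower than Malat1, 3 than Neat1 and 7 than Kcnq1ot1. The difference also went with exonic length: for long noncoding RNAs with a mean of at least 100, its median was -0.32 for 67 genes under 2000 bases, -0.52 for 131 genes of 2000 to 6000, -0.90 for 21 genes of 6000 to 10000 and -0.96 for 12 longer ones. Protein-coding genes with that mean showed a like trend, with medians of 0.49, 0.21, 0.07 and -0.04 at the same lengths. With a trend on length taken out, Malat1 was at -1.71, Neat1 at -1.56, Meg3 at -1.51 and Kcnq1ot1 at -0.72.

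**Figure D2:**
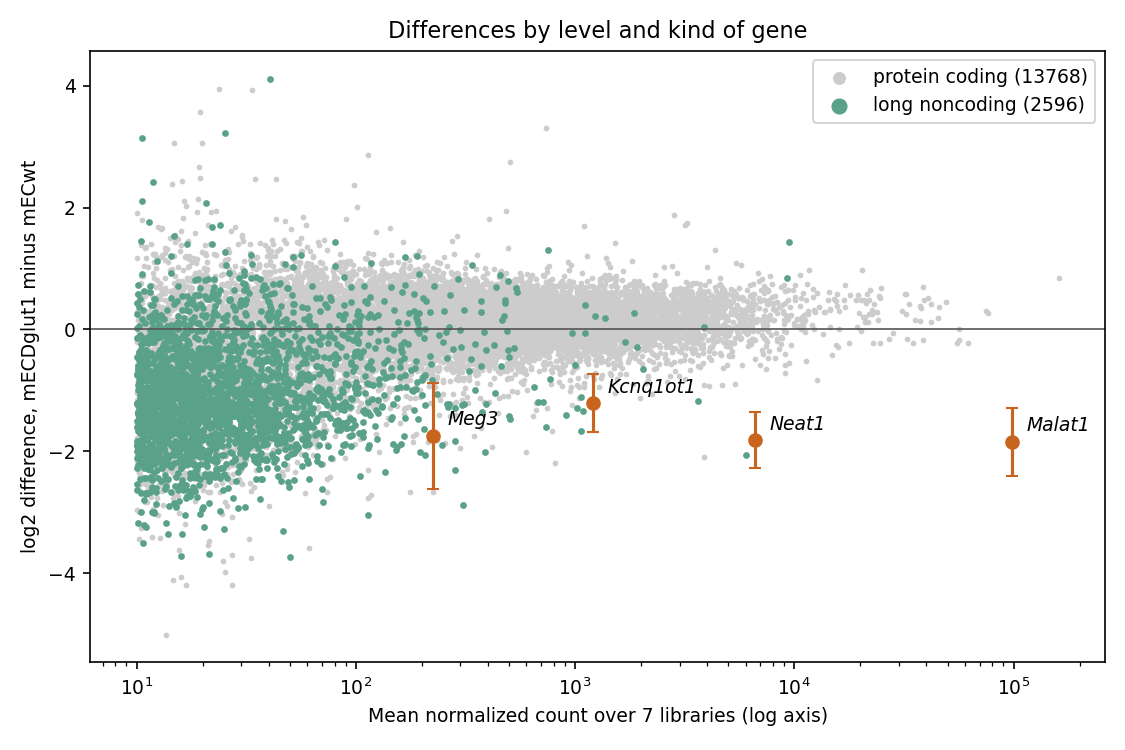
Log2 difference, mECDglut1 minus mECwt, against the mean normalized count over 7 libraries (logarithmic x axis) for tested protein-coding (grey) and long noncoding RNA genes (green), with 4 members in orange and their 95% intervals. Scarce long noncoding RNAs lie mostly below 0, with a median of -1.18 between 10 and 100, and Malat1 and Neat1 lie at -1.84 and -1.82 at the abundant end, where protein-coding genes centre on 0.16.

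A group of genes that endothelial cells are not known to use moved with the nuclear RNAs. The 1153 olfactory and vomeronasal receptor genes, which belong to sensory neurons, summed to 29760, 16085 and 14840 normalized counts in wild type against 7076, 7461, 10441 and 6764 in the knockout-labelled libraries. The groups did not overlap, mECwt-1 was the highest and mECDglut1-3 the highest of its group, which is also the order of Malat1 and Kcnq1ot1 at those ends. The receptor genes took 0.160% ± 0.0786 of all normalized counts in wild type (SD, n = 3) and 0.0529% ± 0.0127 in the knockout-labelled libraries (SD, n = 4).

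For each receptor count, Malat1 stood at 8.01, 8.72 and 8.17 in wild type against 4.88, 6.46, 6.58 and 5.07 in the knockout-labelled libraries. The wild-type libraries, mECwt-1 included, came together on this scale, and the groups still did not overlap, at 1.44-fold. Neat1 stood at 0.544, 0.605 and 0.532 against 0.455, 0.495, 0.306 and 0.338, without overlap and at 1.41-fold. Kcnq1ot1 stood at 0.0820, 0.0859 and 0.103 against 0.0942, 0.101, 0.104 and 0.0842. Its groups overlapped, with means of 0.0902 ± 0.011 (SD, n = 3) and 0.0959 ± 0.00876 (SD, n = 4). Meg3 ranged from 0.00892 to 0.0331 for wild type against 0.00798 to 0.0192, also with overlap. The receptor sum was itself 2.55-fold higher in wild type, so dividing by it raises every gene's knockout-labelled values relative to wild type. How many of all genes stay apart on this scale was not counted, so nothing is read from the lack of overlap. With the receptor genes' mean log2 level as a covariate in the fit over all genes, the log2 difference was -0.72 for Malat1, -0.90 for Neat1, -0.71 for Meg3 and -0.28 for Kcnq1ot1, and 0 of the 16931 genes were called (749 at an unadjusted p under 0.05). That covariate itself did not overlap between the groups (wild type from 2.12 to 3.19, the others from 1.36 to 1.73), so its effect and that of the label cannot be told apart.

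**Figure D3:**
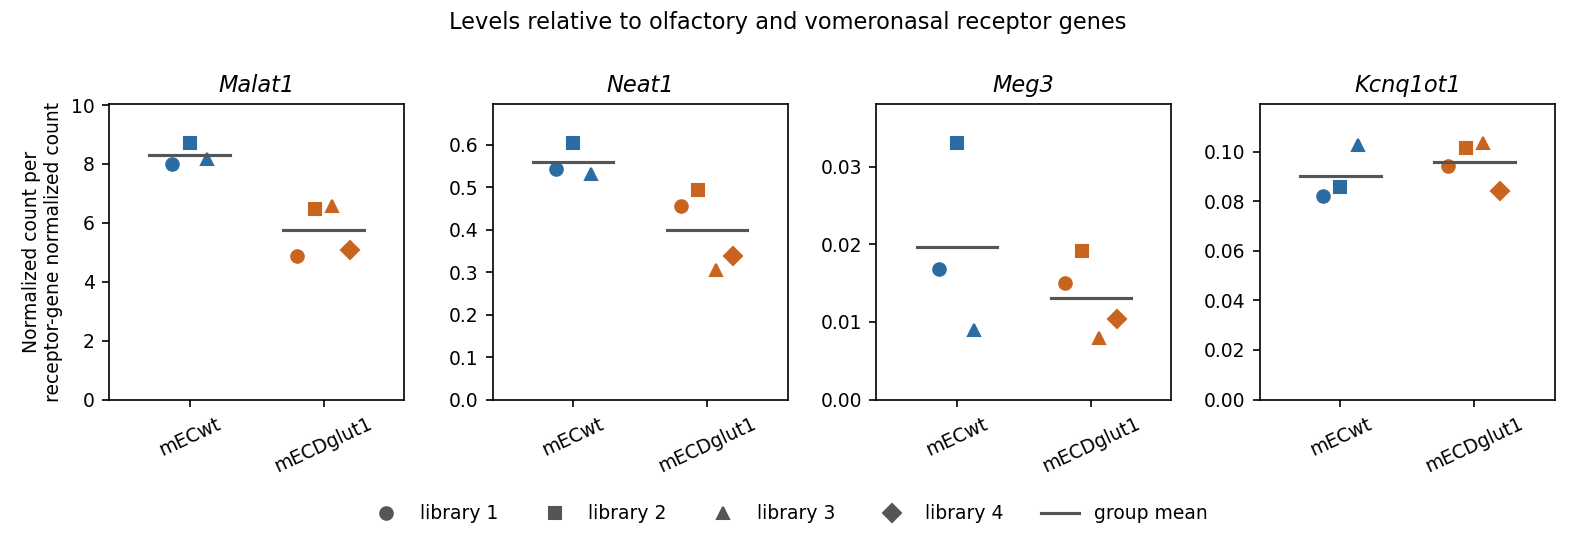
Normalized count of Malat1, Neat1, Meg3 and Kcnq1ot1 divided by the summed normalized count of 1153 olfactory and vomeronasal receptor genes (y axis from 0, scaled for each panel) in each library, with a line at the group mean. Malat1 and Neat1 remain apart between the groups, at 1.44-fold and 1.41-fold, while Meg3 and Kcnq1ot1 overlap. The share of all genes that stay apart on this scale was not counted.

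The proteins that bind, process or destroy these RNAs were followed in 6 lists of 82 genes in all, of which 81 were tested. In the fit over all genes 2 rose, 7 fell and 72 were not called, with a median log2 difference of 0.07 against 0.02 for all tested genes. Over all tested genes 5.98% rose and 5.53% fell. These calls rest on few libraries: without mECwt-1, 0 of the 81 (19 at an unadjusted p under 0.05) and 38 of all 16931 genes were called, in place of 9 and 1949 (11.5%), and limma without a mean-variance trend called 0 and 17. With libraries scaled to equal totals the median of all genes moved from 0.02 to -0.20, the calls over all genes were 226 higher and 1621 lower in place of 1013 and 936, and the median of the 81 was -0.15.

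Proteins of nuclear speckles and known partners of Malat1 held 4 of the 7 genes that fell, with 0 of 16 higher and a median of -0.25. Srrm2, a large scaffold protein of speckles, had 13617, 11503 and 10132 normalized counts in wild type against 6754, 7474, 7669 and 6641 in the knockout-labelled libraries. Son, the other scaffold of speckles, had 11158, 9450 and 7655 against 5989, 6670, 5894 and 5337. For both, every knockout-labelled library lay below every wild-type one. Their log2 differences were -0.71 (SE 0.13, limma adjusted p = 0.011) and -0.64 (SE 0.14, limma adjusted p = 0.019), and the splicing factors Srsf7 (-0.66, SE 0.15, limma adjusted p = 0.020) and Srsf5 (-0.62, SE 0.19, limma adjusted p = 0.050, just under the threshold) also fell. The libraries of Srsf5 overlapped between the groups. Of the 16 genes, 9 fell with equal totals, 8 with quantile normalization and 0 without mECwt-1.

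Of 20 genes of paraspeckle proteins 1 fell, 0 rose and the median was 0.03, which became -0.19 with equal totals and -0.11 with quantile normalization. Sfpq, one of the proteins that paraspeckles cannot form without, had 4646, 4436 and 4209 normalized counts in wild type against 3159, 3377, 3554 and 3388 in the knockout-labelled libraries, a log2 difference of -0.39 (SE 0.11, limma adjusted p = 0.041). The groups did not overlap, but the call was lost when any library other than mECDglut1-3 was left out. Nono, its partner in paraspeckles, was at 0.26 (SE 0.12, limma adjusted p = 0.153), Pspc1, the third protein of that family, at -0.13 (SE 0.17, limma adjusted p = 0.620), and Hnrnpk, which steers Neat1 to its long isoform, at 0.24 (SE 0.12, limma adjusted p = 0.200). Nono and Pspc1 are named for their family, after their values were seen.

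Of 12 tested genes that make or guard the ends of Malat1 and Neat1, 1 rose, 0 fell and the median was 0.25 (0.03 with equal totals and -0.02 with the receptor covariate). The gene that rose was Pop5, a protein subunit of RNase P and of RNase MRP, at 126.3, 132.3 and 117.0 normalized counts in wild type against 208.7, 183.1, 185.2 and 274.6 in the knockout-labelled libraries, with no overlap (log2 difference 0.74, SE 0.21, limma adjusted p = 0.042, and 0.115 with equal totals). Elac2, the enzyme that cuts the other end of the small transfer-RNA-like RNA released from Malat1, was at 0.18 (SE 0.21, limma adjusted p = 0.579). Rpph1, the RNA of RNase P itself, had 16968, 25307 and 28408 normalized counts in wild type against 57152, 35472, 37275 and 54907 in the knockout-labelled libraries. Rmrp, the related RNA of RNase MRP, had 3218, 6228 and 4736 against 18021, 7227, 12066 and 14852. Both rose without overlap between groups, by 0.97 (SE 0.21, limma adjusted p = 0.018) and 1.44 (SE 0.27, limma adjusted p = 0.011) on the log2 scale, the opposite direction to Malat1. They are 2 of the 3 tested nuclear structural RNAs, and Scarna2, a guide RNA of Cajal bodies, was at 0.13 (SE 0.14, limma adjusted p = 0.538). Without mECwt-1 neither Rpph1 nor Rmrp was called.

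Genes for the m6A mark, which Malat1 carries heavily, held 1 of 12 that rose and 1 that fell, with a median of 0.05. The median was -0.17 with equal totals and -0.08 with quantile normalization, each with 0 higher and 2 lower, and -0.11 with the receptor covariate. Fto, a demethylase, rose by 0.46 (SE 0.13, limma adjusted p = 0.041), and Hnrnpa2b1, a nuclear RNA-binding protein linked to m6A, fell by 0.43 (SE 0.12, limma adjusted p = 0.034). Alkbh5, the other demethylase, was at 0.24 (SE 0.13, limma adjusted p = 0.217) and Ythdc1, the nuclear m6A reader, at -0.11 (SE 0.12, limma adjusted p = 0.553). Of 15 genes of nuclear RNA decay, Zfc3h1, which leads polyadenylated nuclear RNA to the exosome, fell (-0.56, SE 0.15, limma adjusted p = 0.035), 14 were not called and the median was 0.12 (-0.11 with equal totals and -0.02 with the receptor covariate). Of the 6 transcription factors known to act on Neat1, 0 were called by limma (1 at an unadjusted p under 0.05). Epas1, which encodes HIF-2α and drives Neat1 under low oxygen, was at 0.37 (SE 0.13, limma adjusted p = 0.076, and 0.045 in limma's robust form) with no overlap between groups, and Stat3 at -0.22 (SE 0.16, limma adjusted p = 0.346). With equal totals, neither Fto nor Pop5 was called.

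Of 24 other long noncoding RNAs listed as mainly nuclear, 19 were tested, 5 fell, 0 rose and the median was -0.63, against -1.14 for all tested long noncoding RNAs. Firre, an X-linked RNA that helps organise chromosomes in the nucleus, had 1716, 1310 and 610.4 normalized counts in wild type against 426.4, 524, 387.2 and 210.5 in the knockout-labelled libraries. Lncpint, an RNA under the control of p53, had 935.4, 642.5 and 752.1 against 215, 339, 385.4 and 239.1. In both, all 4 knockout-labelled libraries lay below all 3 of wild type, and the log2 differences were -1.59 (SE 0.33, limma adjusted p = 0.016) and -1.42 (SE 0.22, limma adjusted p = 0.005). Mir17hg, the host of a microRNA cluster, Airn, the imprinted RNA antisense to Igf2r, and Ftx, a regulator of Xist, fell by 1.78, 0.99 and 0.88. Peg13, an imprinted RNA with levels above 1000, went against the others at 0.27 (SE 0.13, limma adjusted p = 0.173), with every knockout-labelled library above wild type. With mECwt-1 left out 0 of these 19 were called.

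Of 23 tested RNAs listed as mainly cytoplasmic or as hosts of small nucleolar RNAs, 6 rose and 2 fell, and the median was 0.22, or -0.0087 with equal totals. Without mECwt-1, 0 were called. The 6 that rose include Rmrp, which is also counted above among the nuclear structural RNAs. Snhg4, a small nucleolar RNA host, had 250.9, 188.8 and 223.4 normalized counts in wild type against 787.5, 292.3, 616.7 and 857 in the knockout-labelled libraries, without overlap. H19, an imprinted RNA abundant in the embryo, had 63.2, 136.4 and 135.7 against 269.1, 328.4, 200.8 and 204.1, again without overlap. Their log2 differences were 1.42 (SE 0.29, limma adjusted p = 0.017) and 1.21 (SE 0.29, limma adjusted p = 0.024). Oip5os1, also known as Cyrano, rose by 0.53 and Snhg1 by 0.79, the latter with overlap, while Snhg11, an RNA best known from neurons, fell by 1.71 (SE 0.41, limma adjusted p = 0.024).

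**Figure D4:**
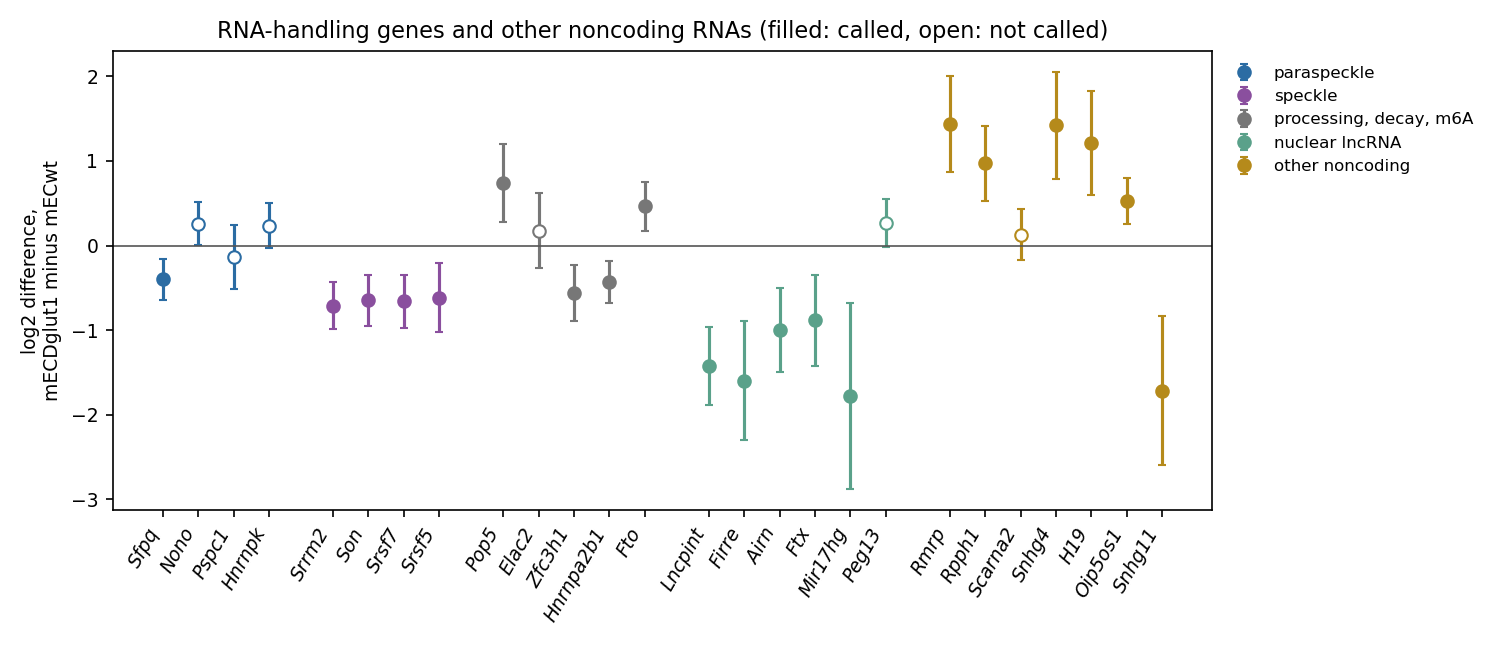
Log2 difference, mECDglut1 minus mECwt, with 95% intervals for genes named in the text, coloured by group, filled where called by limma at an adjusted p under 0.05 and open where not. Speckle genes and nuclear long noncoding RNAs lie mostly below 0, from -0.62 to -1.78, and Rmrp, Rpph1, Snhg4 and H19 lie above it, at 0.97 to 1.44.

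Other genes of the imprinted domains of Meg3 and Kcnq1ot1 were compared with these RNAs. Rian, which lies in the Dlk1-Meg3 domain and is expressed from the same maternal chromosome as Meg3, had 240.2, 204.1 and 202.6 normalized counts in wild type against 205.2, 149.8, 220.7 and 208.4 in the knockout-labelled libraries. These overlapped fully, unlike the high Meg3 values of mECwt-1 and mECwt-2 (Rian log2 difference -0.15, SE 0.20, limma adjusted p = 0.639). Of the 5 other tested genes of the domain 0 were called by limma (1 at an unadjusted p under 0.05), all 5 estimates were below 0 and the median was -1.57 (-0.38 with quantile normalization, and -1.21 with 4 of the 5 below 0 with the receptor covariate), among them the paternally expressed Dlk1 at -0.27 (SE 0.32, limma adjusted p = 0.584) and Rtl1 at -1.72 (SE 0.80, limma adjusted p = 0.156). In the Kcnq1 domain 2 of 12 tested genes rose and 0 fell, with a median of -0.30. With equal totals 1 rose and 1 fell (median -0.52), with quantile normalization 1 rose (median -0.096), and without mECwt-1 limma called 0 (3 at an unadjusted p under 0.05). Cdkn1c, a cell cycle inhibitor that Kcnq1ot1 silences on the paternal chromosome, had 811.2, 1245 and 1043 against 2475, 1289, 1958 and 1934, a rise of 0.87 (SE 0.20, limma adjusted p = 0.022) with mECDglut1-2 barely above wild type. Cd81, a tetraspanin, rose by 0.57 (SE 0.15, limma adjusted p = 0.035, and 0.085 with equal totals), and Kcnq1, the potassium channel that Kcnq1ot1 runs antisense to, was at -0.33 (SE 0.26, limma adjusted p = 0.405). The sources used here do not say whether counting kept strands apart, so reads of Kcnq1ot1 and Kcnq1 may not be separate, and likewise those of Airn and Igf2r.

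Around Malat1 and Neat1, which are neighbours on mouse chromosome 19, the nearest other genes were mostly not called. Of 10 tested neighbours, 5 on each side of either gene, 0 rose, 1 fell and 9 were not called, with a median of 0.04. By limma 3 of the 10 had an unadjusted p under 0.05. Over all tested genes 11.5% were called in either direction, a share near that of these neighbours. Frmd8, next to Neat1, had 371.5, 315.4 and 432.7 normalized counts in wild type and 479.3, 416.3, 401.8 and 294.3 with the knockout label. Its groups overlapped, with a log2 difference of 0.08 (SE 0.19, limma adjusted p = 0.794). The neighbour that fell was Gm42067, a scarce long noncoding RNA at 90.7, 45.1 and 47.3 against 20.9, 11.3, 30.5 and 5.50 (-1.94, SE 0.55, limma adjusted p = 0.040). Around Meg3, 1 of 10 neighbours rose, Ppp2r5c, a phosphatase subunit (0.48, SE 0.14, limma adjusted p = 0.047). Around Kcnq1ot1 the neighbours that rose were Cd81 and Cdkn1c, and Trpm5, a cation channel of taste cells, fell (-1.49, SE 0.34, limma adjusted p = 0.021). Of the 10 neighbours of Miat 0 were called by limma (5 at an unadjusted p under 0.05).

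**Figure D5:**
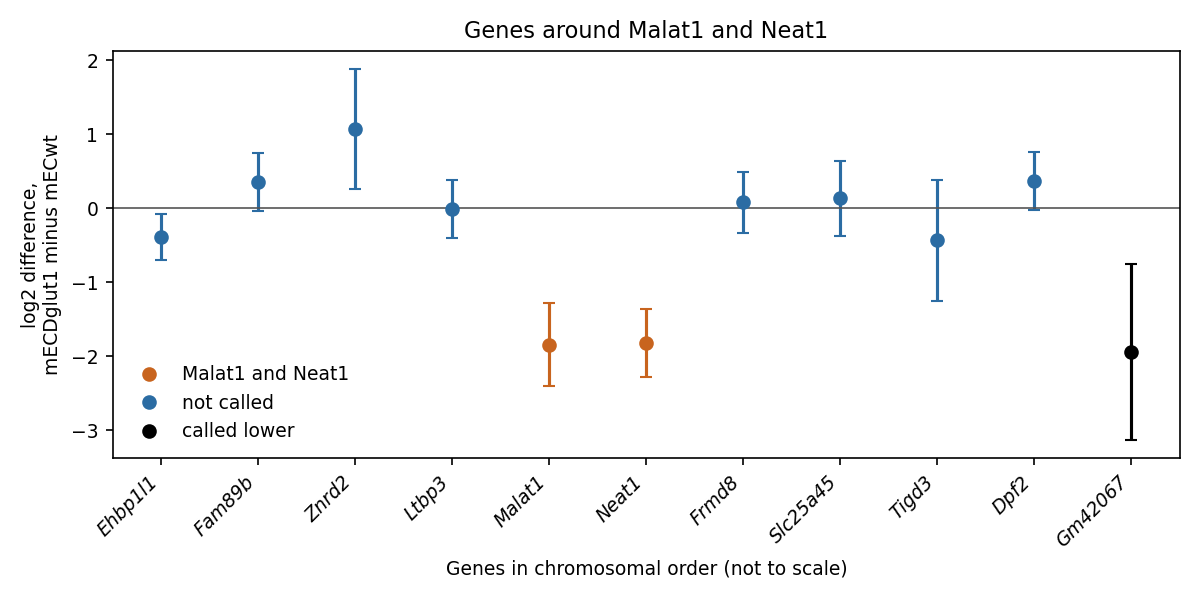
Log2 difference, mECDglut1 minus mECwt, with 95% intervals for Malat1 and Neat1 (orange) and 9 of their 10 tested neighbours in chromosomal order, not to scale. Malat1 and Neat1 stand at -1.84 and -1.82, Gm42067 at the far right at -1.94, and the other neighbours shown have a limma adjusted p above the threshold.

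Likeness of profile was measured as the root mean square difference between log2 profiles over the 7 libraries, each centred on its own mean, among the 10005 genes whose mean reached 100. The genes most like Malat1 were Gm47191 (0.165), Gm37376 (0.172), Gm42553 (0.175), Vmn2r53 (0.192) and Gm19721 (0.199). Most are predicted loci without a known role, and Vmn2r53 is a vomeronasal receptor gene. The genes most like Neat1 were H2-Q10 (0.204), Gm47191 (0.216), Epha1 (0.225), Vmn2r59 (0.228) and Gm37376 (0.236). H2-Q10 encodes a secreted histocompatibility protein of liver, Epha1 an ephrin receptor and Vmn2r59 another vomeronasal receptor. Neat1 was 22nd in likeness to Malat1, and Malat1 was 10th in likeness to Neat1, both at 0.278. Kcnq1ot1 was 44th in likeness to Malat1 and 56th to Neat1, and Meg3 was 211th and 124th. Gm37376 reached 16842, 8081 and 7443 normalized counts in wild type against 2049, 2816, 3236 and 1772 in the knockout-labelled libraries, a level close to that of Neat1 in the same libraries. Vmn2r53 had 845.6, 526.2 and 450.0 against 123.2, 197.3, 288.2 and 183.1, with mECwt-1 highest and mECDglut1-3 highest of its group, as for Malat1.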

How the data were processed

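RNA from an RNeasy Plus kit went into bulk sequencing libraries by way of the Takara Clontech PicoMammalian v2 kit, per the labels' protocols. All descriptions carry the same date, so the labels give no batch. The values are the authors' normalized counts per gene, a scaled signal, deposited as a table for each library. In the submitters' processing notes the build is GRCm39 and the tools are DESeq2, DESeq, kallisto and featureCounts, without roles or versions. Whole reads could not be recovered from the deposited values, so no count test was run, and with the depth unknown the counting error of low genes such as Miat cannot be given.

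Log2 of the normalized count plus 1 was fitted with limma 3.58.1 in R 4.3.3 (eBayes with trend) for the 16931 of 30899 genes with a mean of at least 10, with Benjamini-Hochberg adjustment over all of them at a threshold of 0.05. Such fold changes understate those of low genes. The fit was tested on simulated data with large planted differences and independent noise. No simulated library stood apart from its group, so the dependence of the calls on mECwt-1 is not covered. Values are in library order 1 to 3 (mECwt) and 1 to 4 (mECDglut1), and differences are mECDglut1 minus mECwt. Kinds and exonic lengths of genes came from GENCODE M21 by symbol (96.4% matched), an older build than the files', in which long noncoding RNA genes include loci still to be experimentally verified. Gene order came from a RefSeq table. Python 3.11.15 with pandas 2.3.3 and numpy 2.4.6 was used for summaries.

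The members and lists were chosen with earlier results of these data known. Genes named were the members, Slc2a1, up to 6 called genes of a list by smallest p (with up to 3 others of highest mean where fewer than 3 were called), the 5 most similar profiles, and neighbours that were called or nearest. Not all genes so chosen are reported here. The genes of the cell type lists were named after their values were seen. They were not followed gene by gene through the alternatives below. Alternatives were pseudocounts of 0.5 and 5, no minimum or a mean of 50, equal totals, quantile normalization, median ratios, limma without trend or robust, the replicate number as a block, a covariate for the receptor genes (their mean log2 value), removal of a loess trend on exonic length (span 0.5), and leaving out each library.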

Additional observations from a re-analysis of the deposited data

Results flagged for a closer look

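Both results below were picked out because 1 of the 4 knockout-labelled libraries stood far from the other three in its group. The gap to the nearest library, as a share of the group's range, was above the critical value of Dixon's test at 95%. In 67 measures examined, 2 were picked out, and chance alone picks about 1 in 20 groups. For Nono, the paraspeckle protein, the share was 0.894: mECDglut1-2 had 3049 normalized counts and the others 2546 to 2599. For Hnrnpa2b1, the nuclear RNA-binding protein, the share was 0.872: mECDglut1-4 had 4941 and the others 4364 to 4438, so the library nearest to wild type was the odd one. None of the 5 members was picked out by this measure.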

How the results depend on the processing

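Malat1, Neat1, Meg3, Kcnq1ot1 and Miat were below 0 on the log2 scale under each alternative that gave a value. Leaving out 1 library gave -2.05 to -1.55 for Malat1, -2.04 to -1.52 for Neat1, -2.40 to -1.40 for Meg3, -1.39 to -0.96 for Kcnq1ot1 and -1.87 to -1.06 for Miat. The receptor covariate moved the first 4 to -0.72, -0.90, -0.71 and -0.28, by more than the spread between replicates, and removing the length trend moved Kcnq1ot1 to -0.72; Miat, under the minimum, has no value in several fits. Equal totals gave -2.07, -2.04, -1.97 and -1.43. The 1949 calls over all genes became 1102 with quantile normalization (447 higher, 655 lower), 17 without the trend, 0 with the receptor covariate, 3794 with the length trend removed (2987 higher, 807 lower), and 38 to 1992 on leaving out 1 library, with 38 without mECwt-1, 1057 without mECwt-2, 601 without mECDglut1-1 and 639 without mECDglut1-4. The 9 calls in the 6 partner lists became 4 with no minimum, 0 without the trend, 0 with the receptor covariate, 14 with the length trend removed, and 0 to 8 on leaving out 1 library (0 without mECwt-1, 3 without mECwt-2, 2, 4 and 1 without mECDglut1-1, -2 and -4). The cause was not tested. Replicate numbers did not pair the libraries (correlations of deviations -0.08, -0.05 and -0.12); with the number as a block, which leaves mECDglut1-4 without a partner, all-gene calls were 119, partner calls 0, and the differences -1.72 for Malat1, -1.68 for Neat1, -1.59 for Meg3 and -1.08 for Kcnq1ot1. The sign changed for Slc2a1 (0.091 with the length trend removed; -0.24 to 0.023 on leaving out 1 library), Hnrnpk (-0.022, receptor covariate), Elac2 (-0.047 equal totals, -0.44 receptor covariate), Ythdc1 (0.11 receptor covariate, 0.093 length trend), Peg13 (-0.021, receptor covariate), Scarna2 (-0.095 equal totals, -0.0022 quantile), Rian (0.13 receptor covariate, 0.087 length trend), Cd81 (-0.012, receptor covariate), Kcnq1 (0.017, receptor covariate) and Frmd8 (-0.14 equal totals, -0.048 quantile); leaving out 1 library gave -0.033 to 0.22 for Frmd8 (-0.033 without mECwt-2, -0.014 without mECDglut1-1). Of the 36 genes named and called, 36 lost the call without the trend, 36 with the receptor covariate, 34 without mECwt-1 and 24 with the block. The median of all genes, 0.02, was -0.20 with equal totals, 0.19 with the length trend removed and 0.14 with a mean of at least 50.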

Other observations

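Among the 17 genes listed as long noncoding RNA, other than Malat1, Neat1 and Kcnq1ot1, with a mean of at least 1000, 6 were called lower and 2 higher. The genes named here were chosen after their values were seen. AA474408, a locus whose role is not known here, had 4348, 7349 and 7567 normalized counts in wild type against 14720, 8650, 12164 and 10185 in the knockout-labelled libraries, without overlap (log2 difference 0.85, SE 0.21, limma adjusted p = 0.025). Gm47164, another such locus, had 6633, 4394 and 4994 against 1974, 2323, 3334 and 1884, also without overlap (-1.18, SE 0.19, limma adjusted p = 0.007). The other gene called higher was Rmrp. Neither AA474408 nor Gm47164 was called with the receptor covariate in the fit, under which 0 of the 16931 tested genes were called.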
